A study of Homo sapiens with 8 samples.

Results

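Ovarian carcinomas are recognised in the clinic by a small set of surface antigens, secreted proteins and lineage factors, and 10 of these genes were followed here through a ribosome profiling series of OVCAR3 cells, an established human line of ovarian carcinoma. The genes were taken by name: the mucins MUC16, MUC1 and MUC4, the antigens MSLN, FOLR1, EPCAM and CLDN3, the secreted protein WFDC2, and the transcription factors PAX8 and WT1. All 10 were found among the 20165 gene regions of the count files, and all 10 passed the minimum count in both comparisons. Ribosome profiling counts the short mRNA fragments that a ribosome protects from nuclease, so a footprint count reflects both the amount of an mRNA and how densely ribosomes occupy it. RNA-seq was not used here, so these contributions cannot be told apart, nor can a change per cell from a change in the mix of cells.

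The series holds 8 libraries in 4 groups of 2. In the RACK1 experiment, a doxycycline-inducible shRNA depleted the cells' own RACK1, a scaffold protein of the small ribosomal subunit, while a doxycycline-inducible, HA-tagged RACK1 was expressed in its place. That protein was wild type in RACK1-WT cells and carried mutations at its sites of mono-ADP-ribosylation (MARylation) in RACK1-Mut cells, and both groups received 1 µg/ml doxycycline. In the siRNA experiment, cells were given an siRNA at 30 nM, either a control (siControl) or one that targets OARD1 (siTARG1), the gene of TARG1, a hydrolase that removes ADP-ribose from proteins. All cells were harvested at 48 h. The shared constructs and doxycycline of the RACK1 groups, and the transfection of the siRNA groups, set the experiments apart. The study's methods describe its sequencing replicates as independent biological samples, which the labels do not specify for each library. The p-values below rest on 2 libraries a group, with the spread of each gene estimated together with that of the other genes tested.

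The surface mucins are long glycoproteins whose extracellular part is made largely of repeats rich in serine and threonine, to which O-linked sugars are attached. MUC16 carries the CA125 epitope that is measured in serum, and it binds mesothelin, the product of MSLN. PAX8 is a factor of the Müllerian duct lineage, from which the fallopian tube epithelium derives, and WT1 is a nuclear marker used to recognise serous histology.

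Coding footprints summed to between 3100947 and 6604190 per library. The 10 markers took 0.395% to 0.511% of them. OARD1 had a log2 fold change of -3.94 ± 0.557 (SE) in siTARG1 (DESeq2 adjusted p = 9.31e-11). RACK1 footprints, which hold the endogenous and the re-expressed mRNA together, were lower in RACK1-Mut than in RACK1-WT, with a log2 fold change of -0.42 ± 0.0601 (DESeq2 adjusted p = 1.34e-08). The part of this difference in the RACK1 results below was not tested. Among marker lists of other cell types, CALB2, PRG4, ZEB1, ZEB2, CD3E, LYZ and CDH5 had no coding footprint in any library, and PTPRC had at most 2. The 10 fibroblast and mesenchyme genes summed to 26.6 to 55.1 CPM (coding counts scaled to 1000000 per library), the 6 immune genes to 9.27 to 16.6 and the 4 endothelial genes to 0.954 to 15.6. The 5 mesothelial genes summed to 192 to 259 CPM, nearly all of it from UPK3B and UPK1B, which encode uroplakins.

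Some of the coding sequences repeat or share stretches with other genes, which bears on how reads that align to several places were counted. Of the 30-base windows along the MUC4 coding sequence, 44.9% occurred more than once within it, a single window up to 27 times. In MUC16 this share was 3.89%, with at most 7 copies, and in the other 8 markers it was 0. For MUC1 the annotated transcript searched had 1425 nt of coding sequence, against 1971 nt in the region counted. The 0 of MUC1 therefore covers that transcript only, and repeats in the rest were not searched. All the repeated windows of MUC4 lay within MUC4. No window of any marker had more than 64 exact copies in its own coding sequence, 64 being the hits that the alignment allowed. Copies with mismatches were not counted, so this cannot show how many hits a read had. Whether a footprint with several placements was counted once or at each is not given in the sources used here. The level of MUC4 carries that uncertainty, and whether it weighs equally on every library was not tested. The 4 successive units of 48 bases printed here show what the repeat looks like. They lie on the minus strand of GRCh37 at chr3:195514905-195514952, chr3:195514857-195514904, chr3:195514809-195514856 and chr3:195514761-195514808, and capitals mark the bases that differ from unit 1.
MUC4 unit 1: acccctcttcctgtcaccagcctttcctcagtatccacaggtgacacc
MUC4 unit 2: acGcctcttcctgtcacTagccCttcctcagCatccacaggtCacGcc
MUC4 unit 3: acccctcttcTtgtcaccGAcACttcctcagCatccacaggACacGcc
MUC4 unit 4: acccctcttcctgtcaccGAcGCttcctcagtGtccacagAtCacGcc
Unit 1 occurred 14 times in the MUC4 coding sequence without a mismatch, unit 2 occurred 6 times, and units 3 and 4 occurred 2 times each. They differed from unit 1 at 6, 9 and 8 bases.

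Between genes, 6.66% of the CLDN3 windows also occurred in CLDN4 or CLDN6, 1.48% of the FOLR1 windows in FOLR3, and 1.36% of the MUC1 windows in a region known only by its Ensembl identifier. The other 7 markers shared no window with another gene. The longest stretch common to CLDN3 and CLDN4 had 71 bases, and that of FOLR1 and FOLR3 had 34. Both are printed with flanking bases, and capitals mark the bases shared exactly, where a footprint could come from either gene.
CLDN3, GRCh37 chr7:73184147-73184247, minus strand: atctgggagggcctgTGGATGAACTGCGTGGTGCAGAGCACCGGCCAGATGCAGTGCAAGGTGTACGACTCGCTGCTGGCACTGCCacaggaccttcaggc
FOLR1, GRCh37 chr11:71906671-71906734, plus strand: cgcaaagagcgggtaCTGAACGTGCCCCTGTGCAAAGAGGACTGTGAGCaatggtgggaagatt
FOLR3 had at most 18 coding footprints in a library, against 77 to 580 for FOLR1. CLDN4 and CLDN6 had a coding length of 0 in the files, as did 1312 regions in all, so no coding count of theirs could be set beside that of CLDN3.

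Per length, the markers spanned several orders of magnitude. Levels were compared as CPM per kilobase of coding sequence. WFDC2, a small secreted protease inhibitor measured in serum as HE4, was the highest of the 10 in every group, at 2555 ± 258 in siControl and 1978 ± 20.1 in RACK1-WT (mean ± SD, n = 2). EPCAM, a cell adhesion protein of epithelia, was the second highest in every group, at 697 ± 11.2 in siControl and 609 ± 55.0 in RACK1-WT. The level of MUC4 was the lowest in every group, at 0.192 ± 0.0650 in siControl, where the libraries held 10 and 12 coding footprints, and at 2.93 ± 0.0514 in RACK1-WT. Among the 12955 genes with a level, WFDC2 stood at the 99.8th percentile in siControl and MUC4 at the 4.5th.

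In siControl the order continued with PAX8 (279 ± 9.22), CLDN3 (264 ± 2.01), MUC16 (62.6 ± 4.03), MSLN (35.4 ± 0.605), FOLR1 (29.6 ± 3.58), WT1 (28.2 ± 2.30) and MUC1 (16.3 ± 7.43). Of these neighbours, only FOLR1 and WT1 had overlapping libraries. In siTARG1 the libraries of MUC16, MUC1, MSLN and FOLR1 overlapped in a chain, with mean levels of 45.0, 41.1, 39.5 and 37.4, and WT1 fell to the ninth place with 13.4. In RACK1-WT no neighbours overlapped, and the order after EPCAM was PAX8 (410 ± 32.8), CLDN3 (338 ± 32.8), MSLN (260 ± 18.6), FOLR1 (114 ± 10.4), MUC1 (92.7 ± 17.3), WT1 (40.0 ± 3.69) and MUC16 (25.0 ± 5.91). RACK1-Mut had the same order except that CLDN3 (426 ± 48.3) and PAX8 (404 ± 21.7) changed places, and their libraries overlapped.

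**Figure D1:**
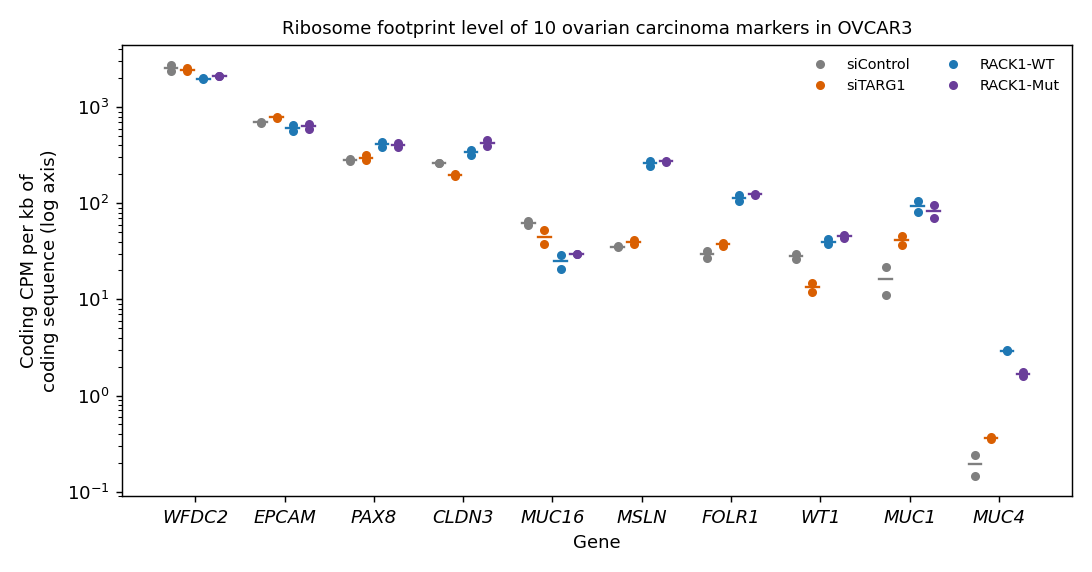
Coding CPM per kilobase of coding sequence (log axis) of each marker, ordered by the siControl mean. Points are the 2 libraries of a group and the dash is their mean. WFDC2 and EPCAM lead in all groups, MUC4 is lowest in all, and the RACK1 groups sit above the siRNA groups for 7 markers, with the widest gaps in MSLN, FOLR1, MUC1 and MUC4.

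MUC16 gave another picture when footprints were counted without regard to length, because its coding sequence of 43524 nt is the longest of the 10. It held 55.8% and 51.9% of the 10 markers' footprints in the siControl libraries and ranked 19th and 18th among all regions by coding counts there. In siTARG1 it held 40.4% and 48.5% of the markers' footprints, and in the RACK1 groups 22.9% to 30.5%. Its rank among all regions was 46 and 23 in siTARG1, 74 and 123 in RACK1-WT, and 67 and 66 in RACK1-Mut. By level per length, MUC16 was at the 79.7th percentile of genes in siControl and at the 60.9th in RACK1-WT.

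Replicates of MUC16 and MUC1 lay far apart in some of the groups, and those of most other markers did not. Over the genes with a mean count of at least 50, the 2 libraries of a group differed by a median of 0.11 to 0.14 on the log2 scale of CPM. MUC16 replicates differed by 0.49 in siTARG1 and by 0.49 in RACK1-WT, the 95.1st and 97.6th percentiles of genes, but by less than 0.001 in RACK1-Mut. MUC1 replicates differed by 0.96 in siControl (99.9th percentile), 0.38 in RACK1-WT and 0.44 in RACK1-Mut. MUC4 replicates differed by 0.70 in siControl, on 10 and 12 counts, and by at most 0.14 in the other groups. Those siControl counts are below the minimum of 50 behind the percentiles, so none is given. CLDN3 replicates differed by at most 0.23. In MSLN, PAX8, EPCAM and WFDC2 no pair of replicates was more than 0.21 apart. The transcription factor WT1 and the folate receptor FOLR1, with few counts in the siRNA libraries, had differences of up to 0.32 and 0.25.

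The first comparison asked which markers differ in footprints when RACK1 lacks its MARylation sites. MUC4 was the only marker called, and it was lower in RACK1-Mut. CLDN3 was higher in both RACK1-Mut libraries without passing the threshold, and the fold changes of the other 8 were within 0.24 of 0 on the log2 scale. A gene was called at an adjusted p under 0.05 in DESeq2, which adjusts over all 12520 genes tested. In all, 10 of these genes (0.0799%) were called, all 10 lower in RACK1-Mut, and edgeR called 30 (0.24%). The count of 1 marker of 10 is a description, since the list was chosen with earlier results known.

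MUC4 (GRCh37 chr3:195473636-195538844, minus strand) is a membrane mucin that binds the receptor ERBB2. Its normalised counts (counts divided by the DESeq2 size factors of the 4 libraries) were 246 and 237 in RACK1-WT and 129 and 142 in RACK1-Mut. Both RACK1-Mut libraries were below both RACK1-WT libraries, at 56.1% of the RACK1-WT mean. The log2 fold change was -0.83 ± 0.195 (SE), with a 95% interval of -1.22 to -0.45 and an adjusted p of 0.0268 in DESeq2. In edgeR the log2 fold change was -0.83 with an adjusted p of 4.04e-05. The DESeq2 call was lost without a minimum count (adjusted p = 0.0541), with a term for the replicate number (adjusted p = 1.00) and when any 1 of the 4 libraries was left out, where the log2 fold change ranged from -0.90 to -0.76 and every adjusted p was 1.00. DESeq2 gave it no adjusted p when all 8 libraries were fitted together, where the log2 fold change was -0.84.

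MUC16 and MUC1 differed between the groups by less than the RACK1-WT replicates did. MUC16 normalised counts were 6479 and 4567 in RACK1-WT and 6498 and 6536 in RACK1-Mut. The groups did not overlap, but 1 RACK1-WT library lay next to both RACK1-Mut libraries and the other stood well below. The log2 fold change was 0.24 ± 0.232 (DESeq2 adjusted p = 1.00). It became 0.51 with an adjusted p of 3.33e-06 without RACK1-WT replicate 1, and 0.01 without RACK1-WT replicate 2. MUC1, whose short cytoplasmic tail takes part in signalling, had normalised counts of 810.0 and 1043 in RACK1-WT and 688 and 939.9 in RACK1-Mut. These overlapped, with a log2 fold change of -0.19 ± 0.287 and a 95% interval of -0.75 to 0.37.

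Among the surface antigens, CLDN3, a tight junction protein, had normalised counts of 1066 and 1208 in RACK1-WT and 1521 and 1302 in RACK1-Mut. Both RACK1-Mut libraries were above both RACK1-WT libraries. The log2 fold change was 0.31 ± 0.105, and it did not pass the threshold in DESeq2 (unadjusted p = 0.00283, adjusted p = 1.00) or in edgeR (adjusted p = 0.0642). FOLR1, a folate receptor anchored in the membrane by a lipid, had normalised counts of 421 and 474 in RACK1-WT and 486 and 477 in RACK1-Mut. Its groups did not overlap, by a margin smaller than the distance between the RACK1-WT libraries, and its log2 fold change was 0.11 ± 0.132. MSLN, the partner of MUC16 on mesothelial cells, overlapped, with 2384 and 2607 in RACK1-WT and 2628 and 2543 in RACK1-Mut. EPCAM also overlapped, with 3126 and 2718 against 3155 and 2795. Their log2 fold changes were 0.05 (95% interval -0.11 to 0.21) and 0.03 (95% interval -0.15 to 0.20).

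WFDC2 had normalised counts of 3759 and 3769 in RACK1-WT and 3902 and 3929.8 in RACK1-Mut. The libraries within each group were nearly equal, and the log2 fold change was 0.06 with a 95% interval of -0.08 to 0.19. The lineage factors PAX8 and WT1 had log2 fold changes of -0.04 ± 0.0833 and 0.15 ± 0.151. PAX8 libraries overlapped, with 2674 and 2959 in RACK1-WT and 2620 and 2842 in RACK1-Mut. WT1 libraries did not, with 297 and 334 against 360.3 and 341. In total, 6 of the 10 markers had groups without overlap, 5 of them higher and 1 lower in RACK1-Mut, against 37.6% of all genes tested (18.7% higher and 18.9% lower).

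The second comparison asked which markers differ in footprints when TARG1 is depleted. MUC1 rose, WT1 and CLDN3 fell, and MUC16, the marker with most footprints, was lower in both siTARG1 libraries without passing the main test. DESeq2 called 3 of the 10 markers, against 16.4% of the 12056 genes tested. In all, 1974 genes were called, 866 higher and 1108 lower in siTARG1, and DESeq2's filter left 935 of those tested without an adjusted p. In 8 of the 10 markers the siTARG1 and siControl libraries were apart, 5 with siTARG1 higher and 3 lower, against 62.6% of genes (31.2% higher and 31.4% lower). edgeR called 4 of the 10, against 28.8% of genes. None of these shares is a result about the markers as a set. Of the 2 mesothelial genes tested, UPK3B fell in siTARG1 (log2 fold change -0.39, DESeq2 adjusted p = 0.0146), while UPK1B, with 208 and 154 coding footprints in siControl and 238 and 182 in siTARG1, was not called. The 4 fibroblast and mesenchyme genes, 2 immune genes and 2 endothelial genes tested were not called. Their part in the results below was not tested.

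WT1 (chr11:32409321-32457110, minus strand), a zinc finger transcription factor, had normalised counts of 171 and 153 in siControl and 64.9 and 82.1 in siTARG1. Both siTARG1 libraries lay far below both siControl libraries, at 45.0% of the siControl mean. The log2 fold change was -1.15 ± 0.269, with an adjusted p of 0.000300 in DESeq2 and 1.12e-05 in edgeR. The raw coding counts behind these values were 195 and 128 in siControl and 78 and 73 in siTARG1. Without siControl replicate 1 or without siTARG1 replicate 1 the call was lost (adjusted p = 0.147 and 0.153), with log2 fold changes of -1.07 and -0.98. In the same comparison PAX8 overlapped between groups, with 1431 and 1365 in siControl and 1508 and 1343 in siTARG1, and its log2 fold change was 0.03 with a 95% interval of -0.16 to 0.22.

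CLDN3 (chr7:73183327-73184600, minus strand) has a single exon. Its normalised counts were 644 and 651 in siControl and 450.3 and 478 in siTARG1. The spread within each group was small beside the gap between them. Its log2 fold change was -0.48 ± 0.127 (DESeq2 adjusted p = 0.00188, edgeR adjusted p = 0.000123). It ranged from -0.52 to -0.44 when 1 library at a time was left out, and in each of these 4 fits the adjusted p was above the threshold (0.0837 to 0.236). EPCAM had normalised counts of 2407 and 2462 in siControl and 2540.4 and 2671 in siTARG1, with a log2 fold change of 0.10 ± 0.0758 (DESeq2 adjusted p = 0.436). Its siTARG1 libraries were both higher, by about as much as they differed from each other.

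MUC1 lies at chr1:155158300-155162707 on the minus strand. Its normalised counts were 80.9 and 157 in siControl and 312 and 258 in siTARG1. All siTARG1 values exceeded the siControl values, but the siControl libraries differed from each other by nearly as large a factor as the groups did. The log2 fold change was 1.26 ± 0.471, with an adjusted p of 0.0428 in DESeq2 and 2.19e-06 in edgeR. It was 0.85 without siControl replicate 1 (adjusted p = 0.0700), 1.82 without siControl replicate 2 (adjusted p = 1.00e-06), 1.12 without siTARG1 replicate 1 (adjusted p = 0.553) and 1.40 without siTARG1 replicate 2 (adjusted p = 0.370). With a term for the replicate number it was 1.33, and the call was lost (adjusted p = 0.131).

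MUC16 lies at chr19:8959520-9121066 on the minus strand, with 84 exons in the annotated transcript. Its normalised counts were 10542 and 9619.7 in siControl and 5696 and 8098 in siTARG1. Both siTARG1 libraries were below both siControl libraries, and they were themselves far apart. The log2 fold change was -0.55 ± 0.259, with an adjusted p of 0.139 in DESeq2 and 9.08e-06 in edgeR, so the call depended on the tool. Without siTARG1 replicate 1 the log2 fold change was -0.31 (adjusted p = 0.0331) and without siTARG1 replicate 2 it was -0.82 (adjusted p = 1.24e-13). Without siControl replicate 1 or 2 it was -0.49 or -0.62 and was not called (adjusted p = 0.679 and 0.527). MUC4 had normalised counts of 8.79 and 14.3 in siControl and 20.8 and 20.2 in siTARG1. With so few counts its log2 fold change of 0.85 had a 95% interval of -0.52 to 2.22 (DESeq2 adjusted p = 0.470). The interval includes values of either direction, so the direction was not settled.

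The remaining markers showed small differences. MSLN had normalised counts of 250.5 and 244 in siControl and 275 and 252 in siTARG1, and FOLR1 had 77.3 and 91.8 in siControl and 98.2 and 106 in siTARG1. Both siTARG1 libraries were higher for both genes, with log2 fold changes of 0.09 ± 0.179 and 0.27 ± 0.290 (DESeq2 adjusted p = 0.808 and 0.601). WFDC2 overlapped, with 3289.8 and 3794 in siControl and 3122 and 3377 in siTARG1, and had a log2 fold change of -0.12 with a 95% interval of -0.29 to 0.04.

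**Figure D2:**
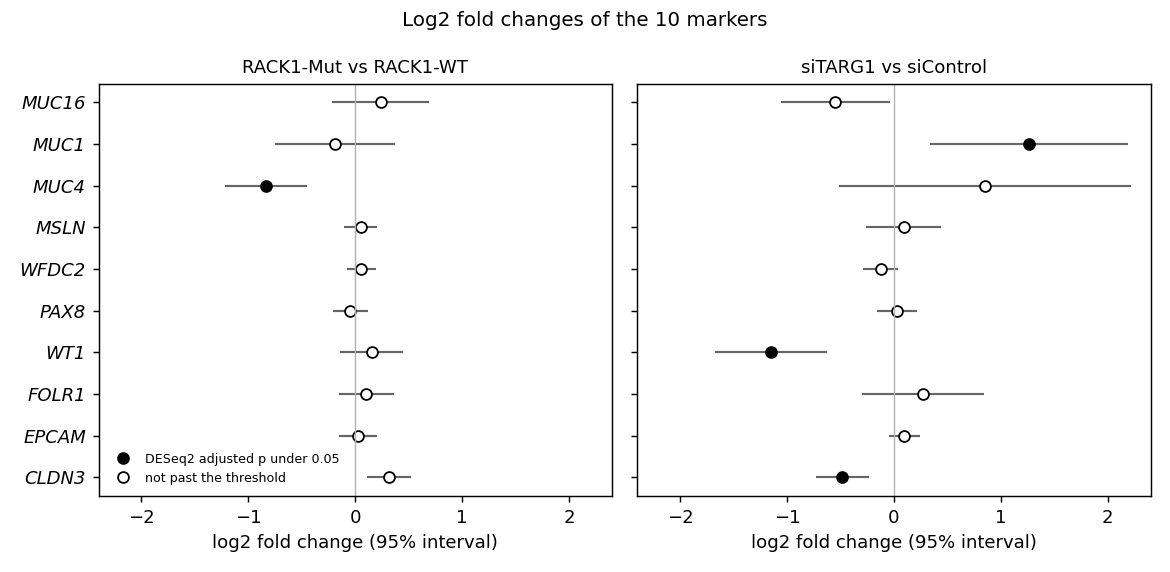
Log2 fold change of each marker in RACK1-Mut against RACK1-WT (left) and siTARG1 against siControl (right), with 95% intervals from DESeq2. Filled points passed an adjusted p of 0.05, which holds for MUC4 on the left and for MUC1, WT1 and CLDN3 on the right.

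The comparisons use different libraries throughout and can be set side by side. The log2 fold changes had opposite signs for 7 of the 10 markers. Among genes with a mean of at least 50 normalised counts in both, which leaves out MUC4, this was so for 6 of 9 markers, against 51.8% of 7990 genes. CLDN3 was at 0.31 in RACK1-Mut and -0.48 in siTARG1, MUC4 at -0.83 and 0.85, MUC16 at 0.24 and -0.55, and MUC1 at -0.19 and 1.26. No marker was called in both comparisons. Whether the difference between the comparisons exceeds the replicate spread was not tested. The median absolute log2 fold change of the markers was 0.13 in RACK1-Mut and 0.38 in siTARG1, and that of genes with a mean of at least 50 normalised counts was 0.09 and 0.27. The marker median in siTARG1 includes MUC4, whose means of 11.5 in siControl and 20.5 in siTARG1 were below that minimum. The siTARG1 medians therefore cover unlike sets and do not show a larger change in the markers.

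**Figure D3:**
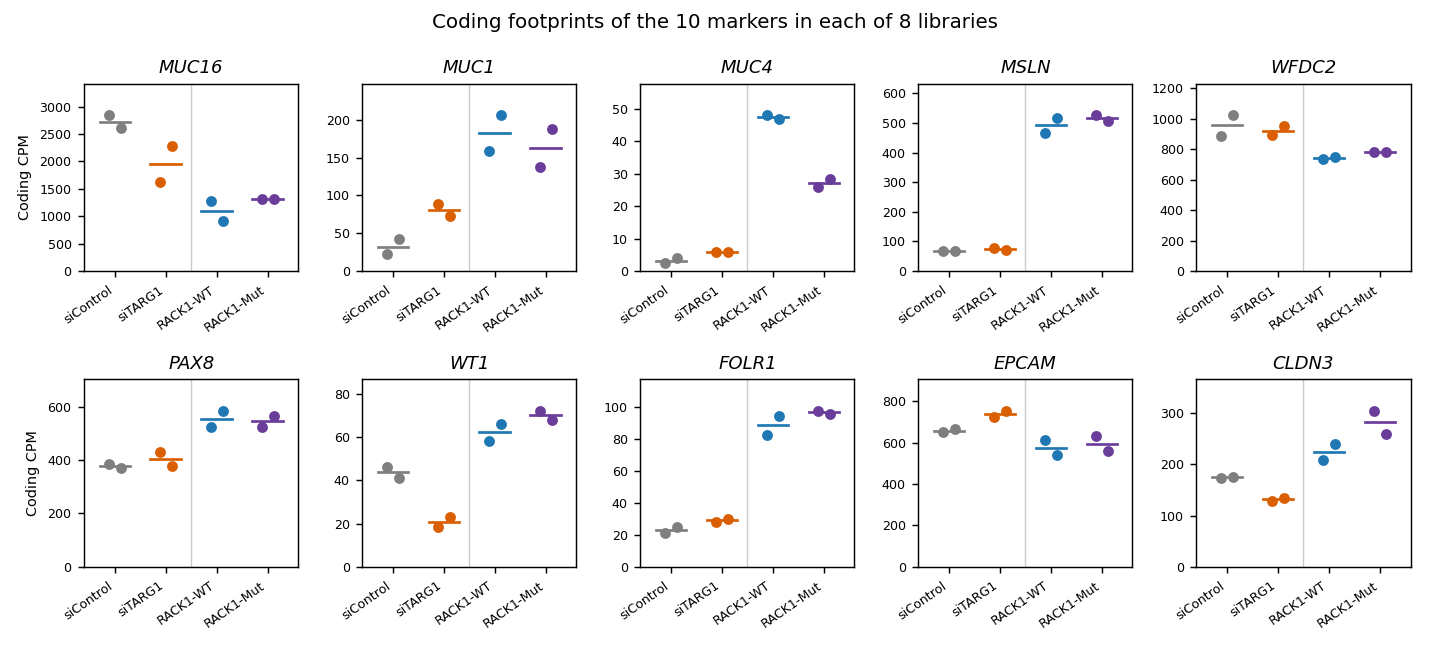
Coding CPM of each marker in all 8 libraries, on axes that start at 0. Points are libraries, bars are means of 2, and the grey line separates the experiments. MUC4 is lower in RACK1-Mut than in RACK1-WT, WT1 and CLDN3 are lower and MUC1 higher in siTARG1 than in siControl, and all 4 RACK1 libraries lie above all 4 siRNA libraries for 7 markers and below them for MUC16, WFDC2 and EPCAM.

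The widest contrasts among the markers were not between conditions but between the experiments. The control groups, RACK1-WT and siControl, were set side by side as a description, without a test, because constructs, doxycycline, transfection and library preparation cannot be told apart. MUC4 was 15.7-fold higher on the CPM scale in RACK1-WT, MSLN 7.34-fold, MUC1 5.94-fold and FOLR1 3.86-fold. MUC16 was 2.54-fold lower. The other 5 markers differed by less. PAX8 had a log2 difference of 0.55, WT1 0.50, CLDN3 0.35, EPCAM -0.20 and WFDC2 -0.37. Among the 9 markers with at least 10 CPM in both groups, which leaves out MUC4, 4 were at least 2-fold apart, against 8.23% of the 8369 genes that met the same minimum. Markers of other cell types differed in both directions. Of 10 fibroblast and mesenchyme genes, 7 were higher and 1 lower in RACK1-WT by mean CPM, and of 4 endothelial genes 2 were higher and 1 lower. Of 6 immune genes, 2 were higher and 2 lower. Of 5 mesothelial genes, 2 were lower and 1 higher, which was UPK1B, with 951 and 823 coding footprints in RACK1-WT against 208 and 154 in siControl. TWIST1, a mesenchymal transcription factor, had 59 and 78 coding footprints in RACK1-WT against 1 and 0 in siControl, KDR, an endothelial receptor, had 67 and 64 against 10 and 4, and COL1A2, a fibrillar collagen, had 14 and 19 against 20 and 19. Their part in the contrast was not tested.

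The scaling decided the direction for the markers near 0 and the size for the others. The deposited RPKM divides by all alignments of a library. Exonic footprints were 27.8% to 41.4% of that total in the siRNA experiment and 48.6% to 57.2% in the RACK1 experiment, so the RPKM placed every marker higher in RACK1-WT than the scaling to coding footprints did. On the RPKM scale EPCAM and WFDC2 were higher in RACK1-WT, by 0.36 and 0.20 on the log2 scale, in place of lower. MUC16 was lower on both scales, by -1.35 and -0.78. MUC4, MSLN, MUC1 and FOLR1 were higher on both, with log2 differences of 4.53, 3.44, 3.13 and 2.51 from the RPKM. The set of markers at least 2-fold apart changed too: on the RPKM scale PAX8 (1.11) and WT1 (1.07) joined it and MUC16 left it. The share of all genes at least 2-fold apart was not computed on that scale.

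**Figure D4:**
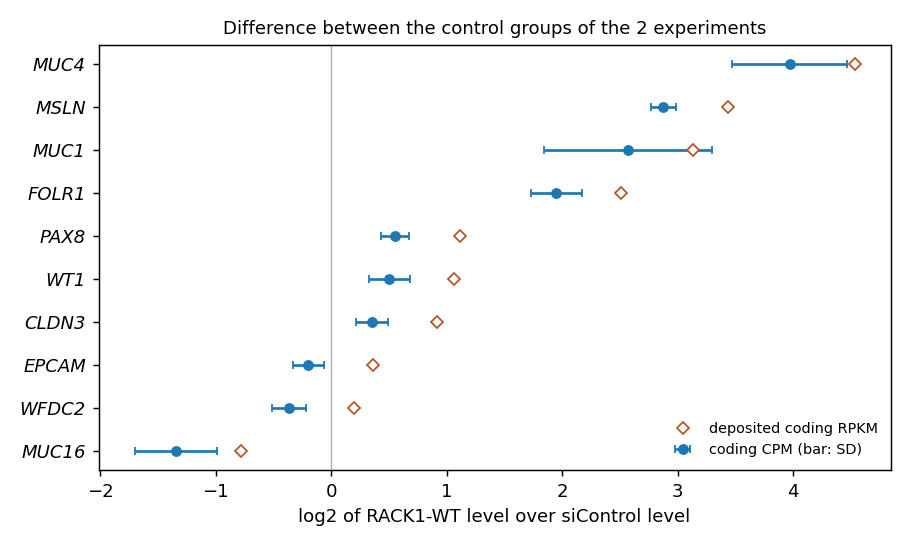
Log2 ratio of the RACK1-WT level to the siControl level of each marker. Blue points are on the CPM scale, with bars for the SD of the difference from 2 libraries a group, and open diamonds use the deposited coding RPKM. EPCAM and WFDC2 change sign with the scaling, while MUC16 stays below 0 and MUC4, MSLN, MUC1 and FOLR1 stay above 1.

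Across the 8 libraries, the genes with the pattern most like that of MUC16 were RBPMS (Pearson's r = 0.981), VPS18 (0.979) and PCBP2 (0.977), among 6717 genes with at least 100 normalised counts on average, with log2 of CPM plus 1 as the scale. For MUC4 they were SLC25A3 (0.993), COX4I1 (0.992) and INSR (0.990), among 6718 genes. INSR, which encodes the insulin receptor, had 23.1 CPM in siControl, 26.9 in siTARG1, 55.2 in RACK1-WT and 48.9 in RACK1-Mut. The 8 points share the step between the experiments, and the likeness is given as a description.

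The untranslated regions (UTRs) held a varying and mostly small share of the markers' footprints. MUC4 had no footprint in either UTR in any library, against 889 in its coding sequence, for a share of 0% with a 95% exact binomial upper limit of 0.414%. MUC16 had 0 in its 5′ UTR and 1 in its 3′ UTR of 58486 footprints. Other markers carried more ahead of the start codon. The 5′ UTR held 3.06% of WT1 footprints (95% exact binomial interval 2.33 to 3.94), 2.18% of EPCAM (2.00 to 2.38), 159 of 7560 footprints of CLDN3 (1.79 to 2.45%), 1.89% of MSLN (1.65 to 2.16) and 1.31% of PAX8 (1.15 to 1.49), against 4.10% over all genes. WFDC2, FOLR1 and MUC1 had 0.320%, 0.132% and 0.0450% there. These intervals cover counting error only.

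WT1 had the highest density in the 5′ UTR. Per length, its 5′ UTR held 17.3% of the footprint density of its coding sequence. The share was 2.98% in siControl, 6.75% in siTARG1, 2.57% in RACK1-WT and 2.77% in RACK1-Mut. It rested on 10, 11, 21 and 16 footprints. The siTARG1 libraries held 3.66% and 9.88%, on only 3 and 8 footprints, and so differed widely from each other. Both lay above every other library, the highest of which had 3.51%, in RACK1-Mut. The difference between groups was not tested. The share of EPCAM in the 5′ UTR was 2.70% in siControl and 2.77% in siTARG1, and 1.76% in RACK1-WT and 1.63% in RACK1-Mut. The RACK1-WT libraries were 1.17% and 2.46%, and the higher of them exceeded the lower siControl library (2.31%).

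The genes around the markers were read from 6 lists. In RACK1-Mut, DESeq2 called no member of any list, among 5 to 32 members tested in each, with 205 genes at an unadjusted p under 0.05 and 30 (0.24%) called by edgeR over all genes. The calls that follow are therefore those of siTARG1, to be read against 7.18% of genes higher and 9.19% lower.

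Among other mucins and mucin-like proteins, 3 of 5 tested members rose and 1 fell. MUC15, a membrane mucin, rose from 312 and 315 normalised counts to 1069 and 1111, a log2 fold change of 1.80 ± 0.121 (DESeq2 adjusted p = 1.22e-46). MCAM, an adhesion molecule also called MUC18, rose by 1.94 and CD164, a sialomucin, by 0.43 on the log2 scale. PODXL, the sialomucin podocalyxin, fell by 1.12. Of 20 tested enzymes of mucin O-glycosylation, 3 rose and none fell, all 3 of them GalNAc transferases that add the first sugar. They were GALNT1 (log2 fold change 2.45), GALNT7 (0.53) and GALNT3 (0.42). GALNT1 went from 19.3 and 20.3 normalised counts in siControl to 101 and 116 in siTARG1.

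Among the proteases that shed mucins and EPCAM and the proteins that bind them, 1 of 19 tested rose and 5 fell. ADAM9, a membrane-bound sheddase, fell by 1.14 on the log2 scale. CTNNB1 (β-catenin), which binds the tail of MUC1, fell by 0.67, and MSN (moesin), which links membrane proteins to actin, rose by 0.65. Epithelial junction and keratin genes moved both ways, with 5 of 32 higher and 7 lower. The claudins CLDN12 and CLDN1 rose, by 2.44 and 1.48, in the comparison in which CLDN3 fell. CDH1, which encodes E-cadherin, rose from 764 and 799 to 2388 and 2481 normalised counts, a log2 fold change of 1.64 ± 0.0891 (DESeq2 adjusted p = 1.55e-72), while KRT18, a keratin of simple epithelia, had a log2 fold change of -1.24.

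Of 16 tested regulators of Müllerian and ovarian lineage, 4 fell, as did WT1, and none rose. LHX1 had a log2 fold change of -1.69, EMX2 -0.70, MEIS1 -0.69 and NR2F2 -0.55. All 4 are transcription factors of urogenital or mesodermal development. Of 25 tested antigens and secreted markers of serous carcinoma, 4 rose and 4 fell. The adhesion molecule L1CAM (log2 fold change 2.12) and the protease inhibitor PI3, also called elafin (1.04), were higher, and the immune checkpoint protein VTCN1 (-1.18) and the matrix protein SPON1 (-0.74) were lower. The median log2 fold change in siTARG1 was 0.06 for the markers, 0.43 for the other mucins, -0.0050 for O-glycosylation, -0.06 for shedding and binding, -0.05 for junctions and keratins, -0.07 for lineage regulators and 0.06 for the antigens, against 0.0031 for all genes tested.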

How the data were processed

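The authors aligned footprints with TopHat2 2.1.1 to transcripts, after removing rRNA reads with Bowtie 1.1.2, and counted them with Plastid (reads of 26 to 36 nt, an offset of 14 from the 5′ end) over merged regions of hg19 (GRCh37), GENCODE release 24, per the file headers. The methods instead state an offset counted from the 3′ end, and which made the counts, and so the split at the edges of the coding sequence, was not resolved. Whether identical molecular identifiers were collapsed is not given in the sources used here. The deposited counts over coding sequences were used as they stand, and the deposited RPKM only for the scaling alternative. Transcript identifiers gave a symbol for 19612 of 20165 regions (97.3%) in a later GENCODE annotation of GRCh37, which also gave the sequences. DESeq2 1.42.0 (R 4.3.3) (the tool named in the study's methods) was fitted to the 4 libraries of each comparison, a choice made here, over genes with at least 10 summed counts, with Benjamini-Hochberg adjustment over the genes kept by its default filter. edgeR 4.0.16 was the alternative count test. Windows of 30 bases were matched exactly on the coding strand. All 10 markers are named, RACK1 and OARD1 as targets, at most 4 called genes of each list by size of change, and 3 genes most like MUC16 and MUC4. A called gene of the shedding and binding list is not reported here by name. The members and lists were chosen with earlier results of these data known. The counts of opposite signs and of genes 2-fold apart between experiments were added after seeing the data. Groups and replicate numbers came from the sample titles.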

Additional observations from a re-analysis of the deposited data

How the results depend on the processing

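With 2 libraries a group, the number of calls moved with the settings more than the fold changes did. The alternatives gave 229 marker results with an adjusted p. Of these, 200 kept both their sign and their side of the threshold, 16 lost a call and 4 gained one. The other 9 changed sign, each with a library left out. The 229 include the main fit read at an adjusted p under 0.1, where no sign could change and no call could be lost. Marker fits without an adjusted p were not counted, among them MUC4 in RACK1-Mut with all 8 libraries in one fit. In RACK1-Mut, edgeR called 30 genes and the fit with the replicate number as a block called 6, against 10, and 1 to 3 with a library left out. The number of markers called was 0 without a minimum count, 0 with all 8 libraries in one fit (where MUC4 had no adjusted p), 0 with the replicate block, and 0 to 1 with a library left out, the 1 being MUC16 without RACK1-WT replicate 1. In siTARG1, edgeR called 3470 genes and the replicate block 1125, against 1974, and leaving out a library gave 564 to 744. The markers called were then 0 to 2, and 2 with the replicate block. Fits without a library leave 1 in its group and assume that it varies like the others. The deviations of same-numbered libraries had correlations of 0.0832 and 0.0307 over genes, which cannot show whether the numbers pair the samples. In the siRNA experiment the depth followed the number. Replicates 1 of siControl and siTARG1 had 4207939 and 4207861 coding counts, and replicates 2 had 3100947 and 3145173. With a library left out, the RACK1-Mut log2 fold change ranged from -0.43 to 0.019 for MUC1, from -0.011 to 0.12 for MSLN, from -0.12 to 0.030 for PAX8 and from -0.071 to 0.13 for EPCAM, and that of PAX8 in siTARG1 from -0.057 to 0.12. Scaled by the deposited RPKM, the log2 ratio of RACK1-WT to siControl became 0.20 for WFDC2 and 0.36 for EPCAM. With levels taken from exon counts per exon length, 6 of 10 markers kept their place in the order in siControl, 4 in RACK1-WT and 4 in RACK1-Mut. Depth limited MUC4 in the siRNA libraries most, where it had 10 to 25 coding counts.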
